A study of Ambystoma mexicanum with 3 samples.

Results

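Genes of DNA replication, namely *MCM2*, *MCM4*, *MCM5*, *MCM6*, *MCM7* and *PCNA*, were described in single nuclei RNA-Seq (snRNA-Seq) of axolotl (*Ambystoma mexicanum*) embryo tail tips. They were taken by name, as every transcript feature that carries one of these symbols, which gave 6 of 19578 symbols and 7 of 91648 features. The study asked how romidepsin, an inhibitor of histone deacetylases, changes transcription in the first hours after tail amputation. There were 3 libraries of nuclei from the distal tail tip of stage 42 embryos, all of them with amputated tails and with no transgene or mutation named in the labels. Rom 6 HPA came from embryos kept in 10 µM romidepsin for 6 h post amputation (HPA), Cont 6 HPA from embryos kept in rearing water for the same time, and 0 HPA from tissue taken at amputation. Tissue of 100 embryos was pooled for each of both 6 HPA libraries, so embryos cannot be told apart, and each condition is 1 library.

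The MCM proteins are the subunits of a ring-shaped helicase that opens the DNA double helix at replication origins. The origin recognition complex with *CDC6* and *CDT1* loads the ring on DNA in G1 phase, geminin (*GMNN*) holds *CDT1* back afterwards, and Cdc45 and the GINS complex turn the loaded ring into the working helicase. *PCNA* encodes the sliding clamp, a ring that holds DNA polymerases and ligase on the template and is put in place by replication factor C. In vertebrate cells these genes are mostly E2F targets, made as cells enter S phase and low in cells that have left the cell cycle, such as muscle fibers and neurons.

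Values are unique molecular identifiers (UMIs), each standing for 1 captured RNA molecule. Rom 6 HPA held 44735 nuclei with 58827729 UMIs, Cont 6 HPA held 56936 nuclei with 105765943 UMIs, and 0 HPA held 31522 nuclei with 42537606 UMIs. The median nucleus had 1079 UMIs in Rom 6 HPA, 1623 in Cont 6 HPA and 1019 at 0 HPA, so nuclei were read more deeply in the control than in the romidepsin library. Between 469 and 736 barcodes were shared by each pair of libraries, at most 1.67% of the smaller one, and without them the log2 ratios of the summed genes given below were -0.29 (Rom 6 HPA to Cont 6 HPA), -0.13 (Cont 6 HPA to 0 HPA) and -0.42 (Rom 6 HPA to 0 HPA). The study's text gives the nuclei numbers of the romidepsin and control libraries the other way round from the files, and the labels of the files were followed. If both labels were exchanged, every ratio of Rom 6 HPA to Cont 6 HPA below would change its sign. The ratios of Cont 6 HPA to 0 HPA and of Rom 6 HPA to 0 HPA would change places. So would all levels, shares and numbers of nuclei given for both 6 HPA libraries. With no replicate, no test between conditions was possible. Brackets give 95% intervals that cover counting error only, exact Poisson for levels and exact conditional binomial for log2 ratios, and a difference called beyond counting error here says nothing of the spread between embryos or libraries.

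*MCM2* was listed as a pair of features, AC_02200031497.1 with 235 UMIs in Rom 6 HPA, 495 in Cont 6 HPA and 173 at 0 HPA, and AC_02200031497.2 with 246, 453 and 199 UMIs in the same order, and both were summed. The other 5 genes had 1 feature each. The remaining subunit of the hexamer, *MCM3*, is not among the 6 genes, and its feature held 7 UMIs in Rom 6 HPA, 9 in Cont 6 HPA and 1 at 0 HPA, while a feature named *MCM3L* was listed with no UMI. Since tags come from 1 end of a transcript and may be missed where that end is not in the assembly, levels were compared within a gene and not between genes.

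Levels are given as CPM, counts per 1000000 UMIs of the same nuclei. *PCNA* was at 115 CPM in Rom 6 HPA (112 to 117), against 149 CPM in Cont 6 HPA (147 to 151) and 157 CPM at 0 HPA (153 to 161). *MCM7*, a subunit of the helicase ring, was at 62.3 CPM in Rom 6 HPA (60.3 to 64.4), against 77.2 in Cont 6 HPA (75.5 to 78.8) and 88.8 at 0 HPA (86.0 to 91.7). Scaled by total UMIs, both genes were lowest in the romidepsin library and highest at amputation, with no overlap of the intervals. With size factors from the median of ratios, given below, Cont 6 HPA was above 0 HPA for both.

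*MCM4* and *MCM6*, which with *MCM7* form the stable core of the helicase, had the same order of libraries when scaled by total UMIs. *MCM4* was at 46.5 CPM in Rom 6 HPA (44.8 to 48.3), 50.3 in Cont 6 HPA (49.0 to 51.7) and 57.7 at 0 HPA (55.4 to 60.0), and *MCM6* was at 42.1 CPM (40.5 to 43.8), 49.0 (47.7 to 50.4) and 54.3 (52.1 to 56.5) in the same libraries. *MCM2* and *MCM5*, the subunits on either side of the gate through which DNA enters the ring, did not follow it. *MCM2* was at 8.18 CPM in Rom 6 HPA (7.46 to 8.94), 8.96 in Cont 6 HPA (8.40 to 9.55) and 8.75 at 0 HPA (7.88 to 9.68). *MCM5* was at 4.93 CPM in Rom 6 HPA (4.38 to 5.53), 4.63 in Cont 6 HPA (4.23 to 5.06) and 5.27 at 0 HPA (4.60 to 6.00). The 3 libraries overlapped for both of these genes, which rest on 224 to 948 UMIs a library, against 2309 to 15774 UMIs for the other 4.

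**Figure D1:**
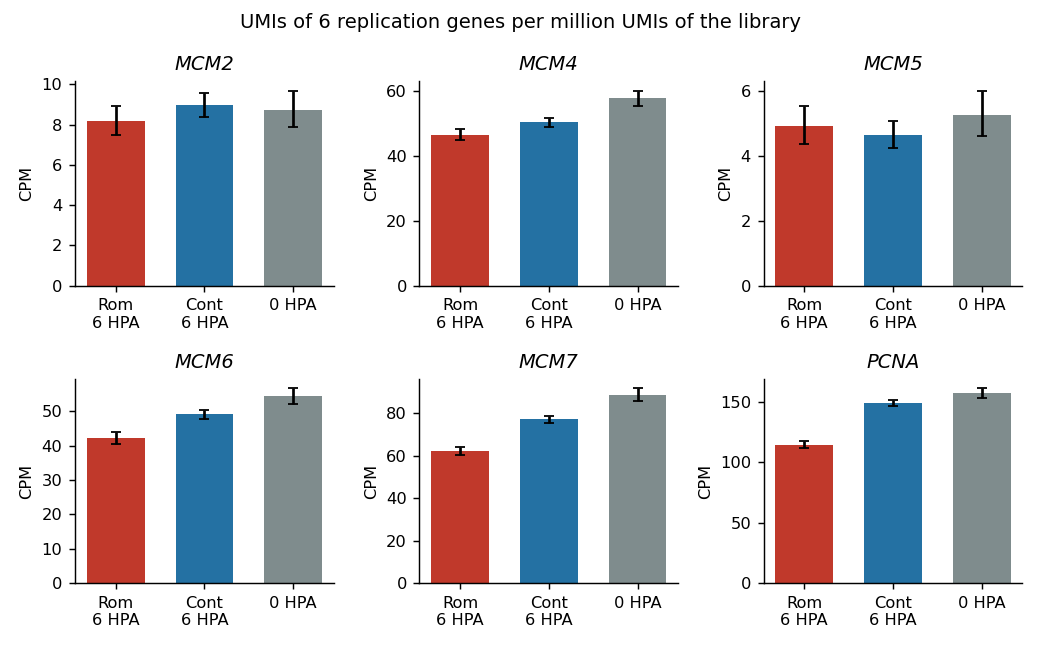
Level of each of the 6 genes in CPM (vertical axes, different in each panel and starting at 0) in Rom 6 HPA, Cont 6 HPA and 0 HPA, 1 library each; lines are exact Poisson 95% intervals of counting error. *PCNA* is at 115 CPM in Rom 6 HPA, against 149 CPM in Cont 6 HPA and 157 CPM at 0 HPA, while the intervals of *MCM2* and *MCM5* overlap in all 3 libraries.

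The difference with romidepsin at 6 HPA was read from Rom 6 HPA over Cont 6 HPA. Romidepsin was dissolved in DMSO, and the study's methods name no DMSO for the control of these libraries. Drug, vehicle and library thus cannot be told apart in this ratio. The log2 ratio was -0.38 for *PCNA* (-0.42 to -0.34) and -0.31 for *MCM7* (-0.37 to -0.25), a level of 0.768 and 0.808 of the control. It was -0.22 for *MCM6* (-0.29 to -0.15) and -0.11 for *MCM4* (-0.18 to -0.05). *MCM2* (-0.13, -0.29 to 0.03) and *MCM5* (0.09, -0.12 to 0.30) had intervals on both sides of 0. Thus 5 of the 6 genes were lower, where 50.3% of 6021 symbols were below 0. *PCNA*, *MCM7*, *MCM6* and *MCM4* were lower beyond counting error. The share of symbols beyond counting error was not computed, and a gene with many UMIs passes that rule at a small ratio. The sum of the 6 was 279 CPM in Rom 6 HPA, against 339 CPM in Cont 6 HPA, a log2 ratio of -0.28 (-0.31 to -0.26).

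Against other genes, *PCNA* and *MCM7* stood near the low end of the ratios as the libraries are labelled. Of the 6021 symbols that reached 1000 UMIs over the 2 libraries, 7.27% were lower by over 1.2-fold, and 2 of the 6 genes passed that fold. No member was higher by over 1.2-fold, against 19.3% of the symbols, and none was past 1.5-fold in either direction. With size factors from the median of ratios, 3 of the 6 were lower by over 1.2-fold, against 14.8% of symbols. None was higher by that fold, against 14.2%. Of the symbols, 2.52% had a lower ratio than *PCNA*, 4.73% a lower one than *MCM7*, 10.6% a lower one than *MCM6* and 26.9% a lower one than *MCM4*. With the labels exchanged *PCNA* would be at 0.38 and *MCM7* at 0.31, above 97.5% and 95.3% of the symbols. The median log2 ratio was -0.18 over the 6 genes and -0.0024 over all symbols, of which 50.3% were below 0. *MCM5* was under the minimum of UMIs used for the symbols in every comparison, and *MCM2* also in Rom 6 HPA to 0 HPA.

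Injury and time without the inhibitor were read from Cont 6 HPA over 0 HPA, which shares the Cont 6 HPA library with the ratios above. The sum of the 6 was 339 CPM in Cont 6 HPA, against 372 CPM in 0 HPA (log2 ratio -0.13, -0.16 to -0.11). *MCM4* (-0.20), *MCM7* (-0.20), *MCM6* (-0.15) and *PCNA* (-0.07) were lower beyond counting error, whereas *MCM5* (-0.18, -0.42 to 0.05) and *MCM2* (0.04, -0.14 to 0.21) were not. The share of symbols beyond counting error was not computed here either. The ratios of the 6 genes lay in the middle of all genes, with 5 of the 6 below 0 against 74.6% of the symbols. None of the 6 was lower by over 1.2-fold, against 36.7% of 5867 symbols, none was higher by that fold, against 5.62%, and the shares of symbols past 1.5-fold were 15.6% lower and 1.94% higher. The median was -0.17 over the 6 genes and -0.16 over all symbols. The sign depended on the scaling, and with size factors from the median of ratios, which add 0.30 to every log2 ratio of these libraries, the sum of the 6 was higher in Cont 6 HPA by 0.17. In Rom 6 HPA over 0 HPA, where both treatment and time differ, 4 of the 6 genes (*MCM7* at -0.51, *PCNA* at -0.46, *MCM6* at -0.37 and *MCM4* at -0.31) were lower by over 1.2-fold, against 33.6% of 5102 symbols. None was higher by that fold (7.11% of symbols), all 6 were below 0 (77.7% of symbols), and none was past 1.5-fold (5.55% of symbols lower, 2.74% higher). This count also depended on the scaling. With size factors 1 of the 6 was lower by over 1.2-fold, against 9.51% of symbols, and none was higher, against 18.4%.

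Nuclei were then grouped without the 6 genes and without the other cell cycle genes on the lists. Of 66 clusters, 2 held nuclei of high depth, with a median of at least 2.10 times the UMIs of the median nucleus of their library, and they are called deep here. The others, at most 1.06 times that median, are called shallow. Deep nuclei were 6521 in Rom 6 HPA (14.6%), 5606 in Cont 6 HPA (9.85%) and 6608 at 0 HPA (21.0%). They fell into 20 sub-clusters, of which 15 were named from marker genes as 10 kinds of nuclei, 12082 nuclei in all. Shallow nuclei were not named, and no sub-cluster could be named spinal cord progenitor or fibroblast. The study's own names were not used and may be different. In sums over many nuclei, fewer cells of a type and less RNA per cell cannot be told apart.

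Among the 10 named kinds, erythrocyte-like nuclei (led by *SLC4A1*, *TFR2* and *ALAS2*) had the highest sum of the 6 genes in each library and muscle-like nuclei (led by *TTN* and *MYPN*, in the larger sub-cluster also by *RYR1* and *DMD*) the lowest. In erythrocyte-like nuclei the sum was 364 CPM in Rom 6 HPA (299.9 to 437), 389 CPM in Cont 6 HPA (338 to 444) and 446 CPM at 0 HPA (333 to 585), from 156, 177 and 58 nuclei. In muscle-like nuclei it was 153 CPM in Rom 6 HPA (139 to 168), 184 CPM in Cont 6 HPA (169 to 199) and 202 CPM at 0 HPA (185 to 221), from 887, 643 and 728 nuclei. At 0 HPA the larger muscle-like sub-cluster was at 171 CPM (150 to 194) and the smaller at 246 CPM (216 to 278). The larger and smaller were at 152 and 154 CPM in Rom 6 HPA, and at 175 and 193 CPM in Cont 6 HPA. Muscle-like against all other named nuclei of the same library, the log2 ratio was -0.66 in Rom 6 HPA (-0.82 to -0.52), -0.70 in Cont 6 HPA (-0.83 to -0.58) and -0.74 at 0 HPA (-0.88 to -0.61). Muscle-like nuclei were thus below the other named nuclei, and yet held 434 to 568 UMIs of these genes a library.

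Ciliated-like nuclei, a sub-cluster of 115 nuclei led by axonemal dyneins, were near the low end at 6 HPA. Their sum was 176 CPM in Rom 6 HPA (115 to 259) and 206 in Cont 6 HPA (150.0 to 275), on 26 and 45 UMIs. At 0 HPA it was 306 CPM (220.3 to 413) on 42 UMIs, at rank 6 of the 10 kinds. Basal epidermis-like nuclei were at 267 CPM in Rom 6 HPA (248 to 286), 303 in Cont 6 HPA (284 to 322) and 369 at 0 HPA (346 to 393). That name rests on 4 of 9 markers over 2-fold, against 3 fibroblast markers, with *ARAP2* the only marker among the leading genes. Neighbors in the order of the means over the 3 libraries overlapped in their ranges at every step. Notochord-like nuclei were of 2 sub-clusters that differed, one with *SHH* among its leading genes at 249.9 CPM in Rom 6 HPA, 338 in Cont 6 HPA and 412 at 0 HPA, and one with *T* (brachyury) at 165, 162 and 188 CPM, against 153, 184 and 202 CPM in muscle-like nuclei. Their intervals did not overlap in Cont 6 HPA or at 0 HPA. Each of these names rests on 3 of 6 markers over 2-fold, against 2 markers of another type. *SHH* or *T* was the only marker among the leading genes. Those of the *SHH* sub-cluster also held *OTOS*, *EPYC*, *LOX*, *COL11A2P*, *CHST11* and *LECT1*. Whether notochord-like nuclei mix several kinds was not tested, and every value given for them carries this limit.

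The other 6 kinds lay between these. In Rom 6 HPA the sums were 239 CPM in myeloid-like, 221 in surface epithelial-like, 220.2 in endothelial-like, 227 in melanocyte-like, 234 in neuron-like and 203 in notochord-like nuclei. In Cont 6 HPA they were 296, 309, 289.9, 263, 256 and 245 CPM for the same kinds, and in 0 HPA 343, 336, 355, 279.7, 276 and 269.8 CPM. Neuron-like nuclei (*SCN8A*, *SNAP25*, *UNC13C*) were thus not as low as muscle-like ones, with a log2 ratio to the other named nuclei of 0.085 in Rom 6 HPA (-0.19 to 0.35), -0.11 in Cont 6 HPA (-0.33 to 0.098) and -0.18 at 0 HPA (-0.42 to 0.052). Surface epithelial-like nuclei of 0 HPA were mostly of a sub-cluster that held 728 nuclei of 0 HPA, 102 of Rom 6 HPA and 70 of Cont 6 HPA, whereas those at 6 HPA were mostly of a sub-cluster led by *MUC5B* and *OTOF*. Sums in these sub-clusters were 238 and 224 CPM in Rom 6 HPA, 343 and 322 CPM in Cont 6 HPA and 361 and 338 CPM at 0 HPA. The name myeloid-like rests on 3 of 9 markers over 2-fold, with *APOBR* the only marker among the leading genes of that sub-cluster. Those leading genes also held *DOCK2*, *EPX*, *SLC26A4*, *ATP6V0A1*, *CALB1* and *DMBT1*. Whether that sub-cluster mixes several kinds of nuclei was not tested, and every value given for myeloid-like nuclei carries this limit.

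**Figure D2:**
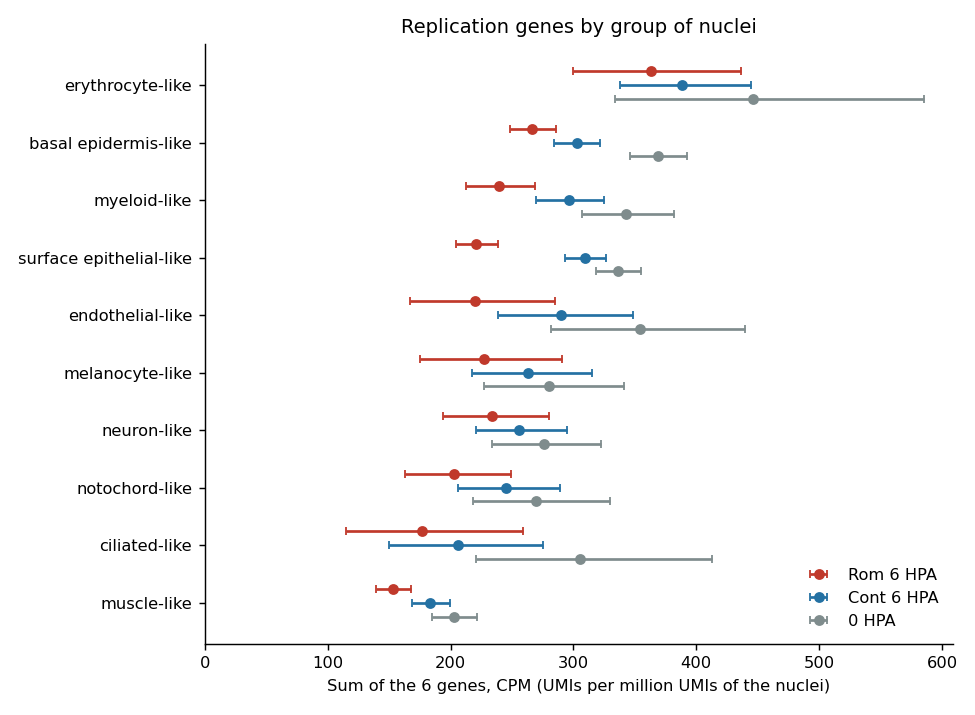
Sum of the 6 genes in CPM (horizontal axis) in each of the 10 kinds of named nuclei (rows, ordered by the mean of the libraries) for Rom 6 HPA, Cont 6 HPA and 0 HPA; lines are exact Poisson 95% intervals. With scaling by total UMIs, Rom 6 HPA has the lowest and 0 HPA the highest point in every row, from 153 CPM in muscle-like nuclei of Rom 6 HPA to 446 CPM in erythrocyte-like nuclei of 0 HPA.

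The sum of the 6 had a ratio of Rom 6 HPA to Cont 6 HPA below 0 in 10 of 10 kinds of nuclei, with log2 ratios from -0.49 to -0.096. In 4 of them the interval stayed below 0, and in the other 6 it held 0. The 4 were surface epithelial-like (-0.49, -0.62 to -0.35), myeloid-like (-0.31, -0.53 to -0.09), muscle-like (-0.26, -0.45 to -0.08) and basal epidermis-like nuclei (-0.18, -0.32 to -0.05). With the 10 kinds at equal weight the log2 ratio was -0.25, against -0.32 over all named nuclei and -0.28 over whole libraries. Of the 20 sub-clusters, 19 had a ratio below 0, 10 of them with an interval below 0, and none had one above 0. All these groups come from the same pair of libraries, and the named sub-clusters are the nuclei of the 10 kinds. Neither count is thus one of replicates, and they are not independent of each other. The share of symbols that were lower in as many groups was not computed. *PCNA* and *MCM7* weighed most in the sum, with 6737 and 3665 of its 16386 UMIs over the whole Rom 6 HPA library. In Cont 6 HPA they held 15774 and 8160 of 35881 UMIs.

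Single genes had few UMIs in a kind of nuclei. *PCNA* had a ratio below 0 in 10 of 10, from -0.53 in endothelial-like to -0.28 in myeloid-like nuclei, with the interval below 0 in surface epithelial-like (-0.43, -0.65 to -0.21) and basal epidermis-like nuclei (-0.38, -0.60 to -0.17). *MCM7* was below 0 in 7 of 10, beyond counting error in surface epithelial-like nuclei (-0.60, -0.84 to -0.36). *MCM4* was below 0 in 6 of 10 and *MCM2* in 5, *MCM4* in none beyond counting error, with 0.29 in basal epidermis-like (-0.069 to 0.65) and 1.11 in endothelial-like nuclei (10 against 7 UMIs). *MCM5* was below 0 in 4 and *MCM6* in 6. Beyond counting error, *MCM2* was lower in surface epithelial-like (-1.19, 10 against 34 UMIs) and *MCM6* in endothelial-like (-1.87, 4 against 22 UMIs) and myeloid-like nuclei (-0.92, 27 against 65 UMIs). The only ratio above 0 beyond counting error was that of *MCM5* in myeloid-like nuclei, with 13 UMIs in Rom 6 HPA and 4 in Cont 6 HPA. Over the 3 libraries a kind of nuclei held 2 to 74 UMIs of *MCM2* and 1 to 57 of *MCM5*, too few to order the kinds by these genes.

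Cont 6 HPA against 0 HPA, the sum was lower in 10 of 10 kinds, from -0.57 in ciliated-like to -0.09 in melanocyte-like nuclei, with the interval below 0 in basal epidermis-like (-0.28), myeloid-like (-0.21) and surface epithelial-like nuclei (-0.12). With the kinds at equal weight it was -0.22. These ratios rest on scaling by total UMIs, as above, and the kinds share the same pair of libraries.

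The 5 unnamed sub-clusters of deep nuclei held 147 to 1882 nuclei each. The largest was led by *PKD1*, *RFX4*, *IGDCC3* and *LRP2*. It had 8 of 10 ciliary markers over 2-fold, but *RFX4*, *LRP2* and *SLIT1*, genes of the neural tube in other vertebrates, were among its 10 leading genes with *SPEF2* as the only ciliary marker, and it was given no name. Its sum was 255 CPM in Rom 6 HPA (228 to 283), 386 in Cont 6 HPA (357 to 417) and 442 at 0 HPA (407 to 480), a log2 ratio of -0.60 between both 6 HPA libraries (-0.79 to -0.41). *PCNA* was at 92.3 CPM in Rom 6 HPA, 149 in Cont 6 HPA and 184 at 0 HPA there (-0.69, -1.01 to -0.37), and *MCM7* had a ratio of -1.03 (-1.41 to -0.65). The next, led by *ITGA8*, *CILP2* and *CCDC80*, had a sum of 290.1 CPM in Rom 6 HPA (262 to 320.4), 392.1 in Cont 6 HPA (362 to 424) and 431 at 0 HPA (396 to 468), in Cont 6 HPA as high as erythrocyte-like nuclei. A small one led by *RBM24* and *CDH15* with *MYOG*, a regulator of muscle differentiation, had 166 CPM in Rom 6 HPA (106 to 247), 380.1 in Cont 6 HPA (283 to 500) and 324 at 0 HPA (236 to 433), on 24, 51 and 45 UMIs. Log2 ratios between both 6 HPA libraries were -0.43 in the *ITGA8* and -1.20 in the *RBM24* sub-cluster. They were nearer 0 in one of 1539 nuclei led by *FAT4* (-0.30, -0.49 to -0.10) and one of 1404 led by *TMOD1* (-0.26, -0.48 to -0.04). Fibroblast was the best-matched type for the *ITGA8*, *FAT4* and *TMOD1* sub-clusters, with 4, 3 and 3 of 11 markers over 2-fold. None of these markers was among their leading genes.

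Deep and shallow nuclei differed in the mix of the 6 genes. The sum was lower in deep nuclei, at 236 against 296 CPM in shallow nuclei of Rom 6 HPA, 302 against 349 CPM in Cont 6 HPA and 338 against 394 CPM in 0 HPA. *MCM6* (log2 ratios -0.71 in Rom 6 HPA, -0.57 in Cont 6 HPA and -0.53 at 0 HPA), *MCM4* (-0.39, -0.41 and -0.50) and *PCNA* (-0.46, -0.38 and -0.30) were lower in deep nuclei, and *MCM7* was higher (0.19, 0.40 and 0.25), each beyond counting error. *MCM2* was lower in deep nuclei (-0.81, -0.53 and -0.29), beyond counting error at 6 HPA only, and *MCM5* was within it in every library. Accordingly, there were 1.32 UMIs of *PCNA* per UMI of *MCM7* in deep nuclei (1.23 to 1.43) and 2.07 in shallow nuclei (1.98 to 2.18) of Rom 6 HPA, 1.26 and 2.16 in Cont 6 HPA, and 1.40 and 2.05 at 0 HPA, so these transcripts did not keep 1 ratio in both.

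Genes in general were lower in deep nuclei too, with a median log2 ratio of -0.25 in Rom 6 HPA, -0.15 in Cont 6 HPA and -0.22 at 0 HPA over all symbols tested, and a median of -0.42, -0.40 and -0.30 over the 6 genes. Of all symbols, 39.5%, 43.6% and 39.8% were above 0 in the same libraries. Of 14 mitotic genes with enough UMIs, 10 were higher beyond counting error in deep nuclei of Rom 6 HPA, 11 in Cont 6 HPA and 10 at 0 HPA, with medians of 1.34, 1.57 and 1.39, and 3, 2 and 3 were lower, among them the kinases *AURKB* (-0.70, -0.74 and -0.69) and *CDK1* (-0.97, -0.92 and -0.69). Other replication genes went both ways, with 21 of 52 higher and 22 lower in Rom 6 HPA, 24 and 21 of 53 in Cont 6 HPA, and 21 and 17 of 51 at 0 HPA. Ribosomal protein transcripts moved with the split and took 5.42% of the UMIs of deep and 9.55% of shallow nuclei in Rom 6 HPA, 5.29% and 9.47% in Cont 6 HPA, and 6.24% and 10.2% at 0 HPA. Their part in the deep to shallow ratios was not tested. Another split, named against unnamed nuclei, was read without ribosomal protein genes and the 100 most abundant features in the total. The unnamed nuclei include 6653 deep ones. The log2 ratio for the sum was then between -0.77 and -0.74 in the 3 libraries, against -0.41 to -0.34 with them. Ribosomal protein genes were not left out apart from the other features.

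The romidepsin difference was present in both. Rom 6 HPA against Cont 6 HPA, the sum had a log2 ratio of -0.36 in deep (-0.41 to -0.30) and -0.24 in shallow nuclei (-0.27 to -0.21). *MCM7* was at -0.48 in deep (-0.58 to -0.38) and -0.27 in shallow nuclei (-0.34 to -0.21), intervals that do not overlap. *PCNA* was at -0.41 and -0.33, and *MCM6* at -0.30 and -0.15.

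**Figure D3:**
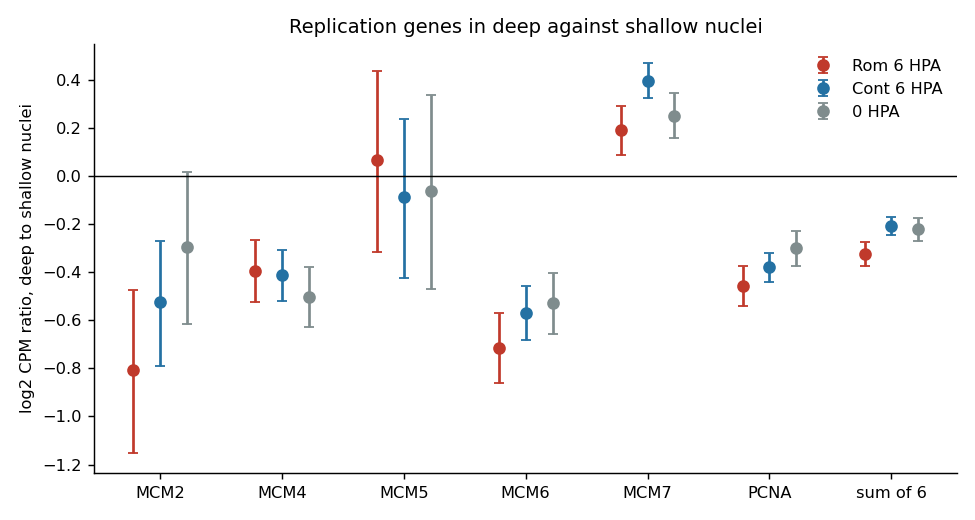
Log2 ratio of CPM in deep over shallow nuclei (vertical axis) for each gene and the sum of the 6, in Rom 6 HPA, Cont 6 HPA and 0 HPA; lines are exact conditional 95% intervals. *MCM7* lies above 0 in all 3 libraries (0.19 to 0.40), *MCM4*, *MCM6* and *PCNA* lie below 0, and *MCM5* spans 0.

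Shares of nuclei were compared after UMIs had been drawn at random from every nucleus down to the same depth, 950 UMIs. A UMI of any of the 6 genes was then found in 23.6% of nuclei in Rom 6 HPA (23.2 to 24.0), 27.7% in Cont 6 HPA (27.3 to 28.1) and 30.5% at 0 HPA (29.9 to 31.0). Without thinning the shares were 29.6%, 44.9% and 37.4%, and Cont 6 HPA, the library with the deepest nuclei, was then the highest. Muscle and nerve are mostly out of the cell cycle, and their nuclei were taken as a measure of background. At least 2 UMIs of mitotic genes were found in 20.9% to 32.4% of neuron-like nuclei, as given below. For muscle-like nuclei it was 11.0% to 16.8%, and both limit this measure. Muscle-like nuclei showed 13.5% in Rom 6 HPA (11.3 to 16.0), 16.7% in Cont 6 HPA (13.9 to 19.8) and 20.5% at 0 HPA (17.6 to 23.6), from nuclei with medians of 2767.5, 4146 and 2834 UMIs before thinning. Neuron-like nuclei showed 23.8% in Rom 6 HPA (18.1 to 30.2), 24.8% in Cont 6 HPA (19.2 to 31.0) and 25.3% at 0 HPA (19.8 to 31.5), with medians of 2064, 2863 and 2114 UMIs. Both kinds are of deep nuclei, whereas most nuclei are shallow. Among deep nuclei a UMI was found in 21.1% in Rom 6 HPA, 25.7% in Cont 6 HPA and 28.6% at 0 HPA. The share of all nuclei and that of deep nuclei lay within the neuron-like interval and above the muscle-like interval in each library. The reading thus depended on which kind was taken as background, and a UMI in a single nucleus is not read as expression. All nuclei had medians of 1080, 1623 and 1031 UMIs in Rom 6 HPA, Cont 6 HPA and 0 HPA.

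Genes of the group were found together in a nucleus about as often as if they were independent. Among thinned shallow nuclei of Cont 6 HPA, *PCNA* and any of the MCM genes were found together in 1149 of 51320 nuclei, against 1156 if they were independent (ratio 0.994, 0.937 to 1.05). In deep nuclei, thinned to 1400 UMIs, the ratio of observed to independent was 0.988 in Rom 6 HPA (0.829 to 1.17), 1.05 in Cont 6 HPA (0.916 to 1.196) and 1.04 at 0 HPA (0.925 to 1.17). All 15 pairs of the 6 genes had intervals that held 1, in deep and in shallow nuclei of each of the 3 libraries. In deep nuclei, pairs with *MCM2* or *MCM5* had at most 13.1 nuclei expected, so their wide intervals say little. For *MCM2* with *MCM5* in Rom 6 HPA 0.326 nuclei were expected, and the interval of the ratio was 0 to 11.3. Of deep nuclei, 71.1% in Rom 6 HPA, 63.8% in Cont 6 HPA and 61.7% at 0 HPA had none of the 6 genes, and 3.35%, 6.01% and 6.78% had at least 2 of them.

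Among deep nuclei, those with mitotic transcripts carried more of the 6 genes. Over all nuclei thinned to 950 UMIs, those with at least 2 UMIs of the mitotic list and those with fewer had sums of 287 and 289 CPM in Rom 6 HPA, 348 and 345 CPM in Cont 6 HPA, and 389 and 388 CPM at 0 HPA, none of them a difference beyond counting error. In deep nuclei thinned to 1400 UMIs the sums were 268 and 220.5 CPM in Rom 6 HPA (log2 ratio 0.28, 0.15 to 0.41), 354 and 304 CPM in Cont 6 HPA (0.22, 0.11 to 0.34), and 383 and 319 CPM in 0 HPA (0.26, 0.16 to 0.37). *PCNA* alone was higher beyond counting error in each library, at 106 and 80.1 CPM in Rom 6 HPA (0.40, 0.20 to 0.62), 141 and 122 CPM in Cont 6 HPA (0.22), and 156 and 123 CPM in 0 HPA (0.35).

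The kind of nuclei moved with this split. At least 2 mitotic UMIs were found in 78.8% of erythrocyte-like nuclei in Rom 6 HPA, 76.3% in Cont 6 HPA and 86.5% at 0 HPA, against 16.8%, 11.0% and 16.8% of muscle-like nuclei. For neuron-like nuclei the shares were 32.4%, 20.9% and 24.1% in the same libraries. Within single kinds, 1 of 30 ratios had an interval off 0, neuron-like nuclei of Cont 6 HPA at 0.95 (0.22 to 1.64), and the median over the 10 kinds was 0.04 in Rom 6 HPA, 0.03 in Cont 6 HPA and 0.13 at 0 HPA. A split by other replication genes gave a like picture, with 0.03, 0.03 and 0.01 over all nuclei, and 0.32 (0.17 to 0.46), 0.40 (0.27 to 0.54) and 0.30 (0.17 to 0.43) in deep nuclei of Rom 6 HPA, Cont 6 HPA and 0 HPA. The medians over the kinds were 0.17, 0.093 and 0.055, with intervals above 0 in 0, 2 and 1 of 10 kinds and below 0 in 1 kind of Rom 6 HPA.

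**Figure D4:**
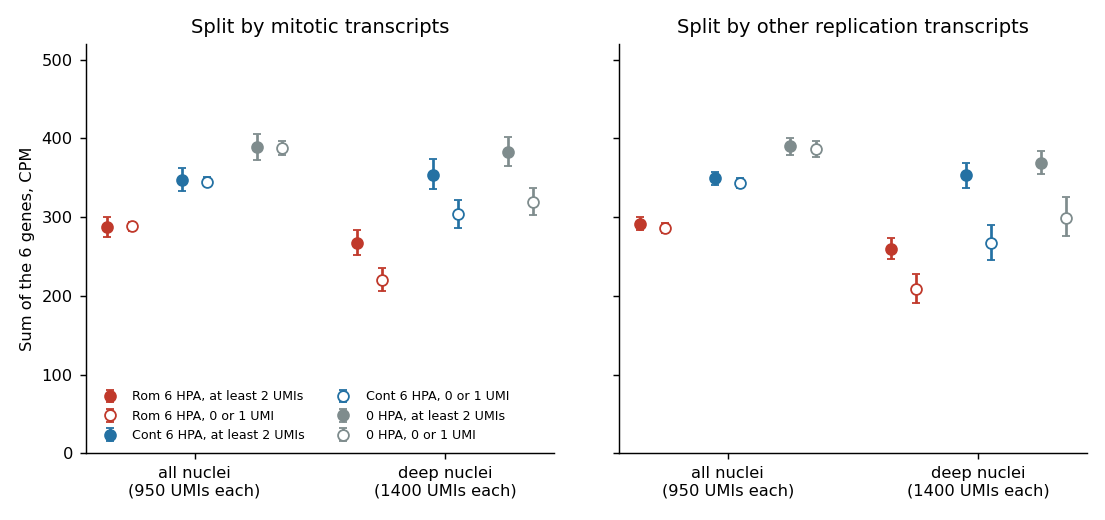
Sum of the 6 genes in CPM (vertical axis) in nuclei with at least 2 UMIs (filled) and with 0 or 1 UMI (open) of the mitotic list (left) or of the other replication genes (right), for all nuclei and for deep nuclei of Rom 6 HPA, Cont 6 HPA and 0 HPA; lines are exact Poisson 95% intervals. Filled and open points coincide over all nuclei and separate in deep nuclei, as 268 and 220.5 CPM for the mitotic list in Rom 6 HPA.

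Other genes of the replication machinery lay on both sides of a ratio of 1 between Rom 6 HPA and Cont 6 HPA. Of 61 listed, 58 were matched and 53 had at least 100 UMIs in both 6 HPA libraries together. Among these, 3 were lower by over 1.2-fold (5.66%, against 7.27% of all symbols) and 7 were higher (13.2%, against 19.3%). The symbols needed at least 1000 UMIs, so these shares are of unlike sets. *TIPIN* and *GINS1* among the lower genes and *DNA2* among the higher ones did not reach that minimum. The median log2 ratio of the 53 genes was 0.02, against -0.18 over the 6 genes. Genes of helicase loading held both extremes. *CDC6*, which helps to load the MCM ring, was at 16.2 CPM in Rom 6 HPA (15.2 to 17.2), against 7.25 CPM in Cont 6 HPA (6.75 to 7.78) and 12.2 CPM at 0 HPA, a log2 ratio of 1.16 between both 6 HPA libraries (1.02 to 1.30). *GMNN*, which holds back reloading, was at 27.2 CPM in Rom 6 HPA (25.9 to 28.6), against 57.9 CPM in Cont 6 HPA (56.4 to 59.3) and 71.9 CPM at 0 HPA, a log2 ratio of -1.09 (-1.17 to -1.01).

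These differences were found in both classes of nuclei. *CDC6* was at 1.11 in deep (0.86 to 1.37) and 1.12 in shallow nuclei (0.96 to 1.29), and *GMNN* at -0.997 (-1.15 to -0.85) and -1.13 (-1.23 to -1.04). Over the 10 kinds of nuclei, *CDC6* had an interval above 0 in 5 and a ratio below 0 in 1, and *GMNN* had a ratio below 0 in 9, with the interval below 0 in 6. Past 1.5-fold, 0.747% of all symbols with at least 1000 UMIs were lower and 3.57% were higher. Of the 53 genes, *TIPIN*, a partner of *TIMELESS* at the fork, was the only other one past that fold (-0.72, -1.25 to -0.21), on 43 UMIs in Rom 6 HPA and 127 in Cont 6 HPA.

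The further genes named here were chosen after their values were seen. *CDT1*, the loading factor that geminin binds, was at 16.2 CPM in Rom 6 HPA and 12.7 in Cont 6 HPA (log2 ratio 0.35, 0.22 to 0.47), whereas *ORC1* to *ORC6*, the origin recognition complex, lay between -0.14 and 0.12 with 0 within each interval. *FEN1*, the flap nuclease that acts with *PCNA* on Okazaki fragments, was lower (-0.26, -0.33 to -0.18), as were *RFC3* (-0.23) and *RFC2* (-0.16) of the clamp loader. *RFC1*, its largest subunit, was higher (0.23, 0.16 to 0.30). *POLA1*, the catalytic subunit of polymerase alpha, was at 102 CPM in Rom 6 HPA and 81.6 in Cont 6 HPA (0.32, 0.27 to 0.37), and *CHAF1A*, a histone chaperone that binds *PCNA*, was at 109 and 85.1 CPM (0.36, 0.31 to 0.40). *TOPBP1* (0.45) and *TICRR* (0.26), which take part in helicase activation, were also higher, and *GINS1* (-0.27) and *GINS3* (-0.19) of the GINS complex were lower. Of nucleotide supply, *TYMS* was at -0.16, *DUT* at -0.07 and *RRM1* at -0.05 on the log2 scale, none of them past 1.2-fold. Log2 ratios of deep to shallow nuclei in Rom 6 HPA were 1.68 to 2.77 for *RFC1*, *POLA1*, *CHAF1A*, *TOPBP1* and *TICRR*. They were 1.39 for *DUT*, -0.15 for *RRM1*, -0.41 for *CDT1*, -0.92 for *TYMS* and -0.94 to -0.69 for *FEN1*, *RFC2*, *GINS1* and *GINS3*. *RFC3*, although lower in Rom 6 HPA than in Cont 6 HPA, was at 0.17 (-0.13 to 0.46). Deep nuclei were 14.6% of Rom 6 HPA and 9.85% of Cont 6 HPA, and the part of this share in the ratios above was not tested.

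Over whole libraries, mitotic genes were mostly higher in Rom 6 HPA than in Cont 6 HPA, with 8 of 14 higher by over 1.2-fold, against 19.3% of all symbols, none lower by that fold, against 7.27%, and a median of 0.31. With size factors from the median of ratios 5 were higher and 1 was lower, against 14.2% and 14.8% of symbols. Of these 14, 10 were higher beyond counting error in deep than in shallow nuclei of Rom 6 HPA, and 11 in Cont 6 HPA. Deep nuclei were 14.6% of Rom 6 HPA and 9.85% of Cont 6 HPA, and the part of this share in the ratios was not tested. *ASPM*, which organizes spindle poles, was at 45.7 CPM in Rom 6 HPA and 30.1 in Cont 6 HPA (0.60, 0.53 to 0.68), and *AURKA*, a spindle kinase, was at 15.8 and 18.6 CPM (-0.23, -0.35 to -0.12). Among 12 regulators, 1 was lower and 3 were higher by over 1.2-fold, against 2 and 1 with size factors and the same shares of symbols as for the mitotic genes. *E2F3*, an activating E2F factor, was the lower one (-0.41, -0.51 to -0.30), and the higher ones were *CCND1*, cyclin D1 (0.33, 0.30 to 0.35), *CCNE1*, cyclin E1 (0.29, 0.11 to 0.48), and *CDKN1A*, an inhibitor of cyclin-dependent kinases (0.45, -0.12 to 1.02, on 48 and 63 UMIs). In Cont 6 HPA against 0 HPA, 12 of 14 mitotic genes were lower by over 1.2-fold, with a median of -0.62, and 28 of 53 other replication genes were, with a median of -0.29. As given above, none of the 6 genes passed that fold there. Of all symbols 36.7% did. Shares of symbols are over those with at least 1000 UMIs, whereas listed genes needed 100. *CDKN1A* did not reach the minimum of the symbols. Deep nuclei were 9.85% of Cont 6 HPA and 21.0% of 0 HPA, and the part of this share in the ratios of both lists was not tested. With size factors 8 of 14 mitotic genes were lower by that fold (median -0.32) and 9 of 53 other replication genes were lower and 9 higher (median 0.015), against 16.4% of symbols lower and 31.2% higher, and 1 of the 6 genes, *MCM2*, was past that fold there, on the higher side (0.34).

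**Figure D5:**
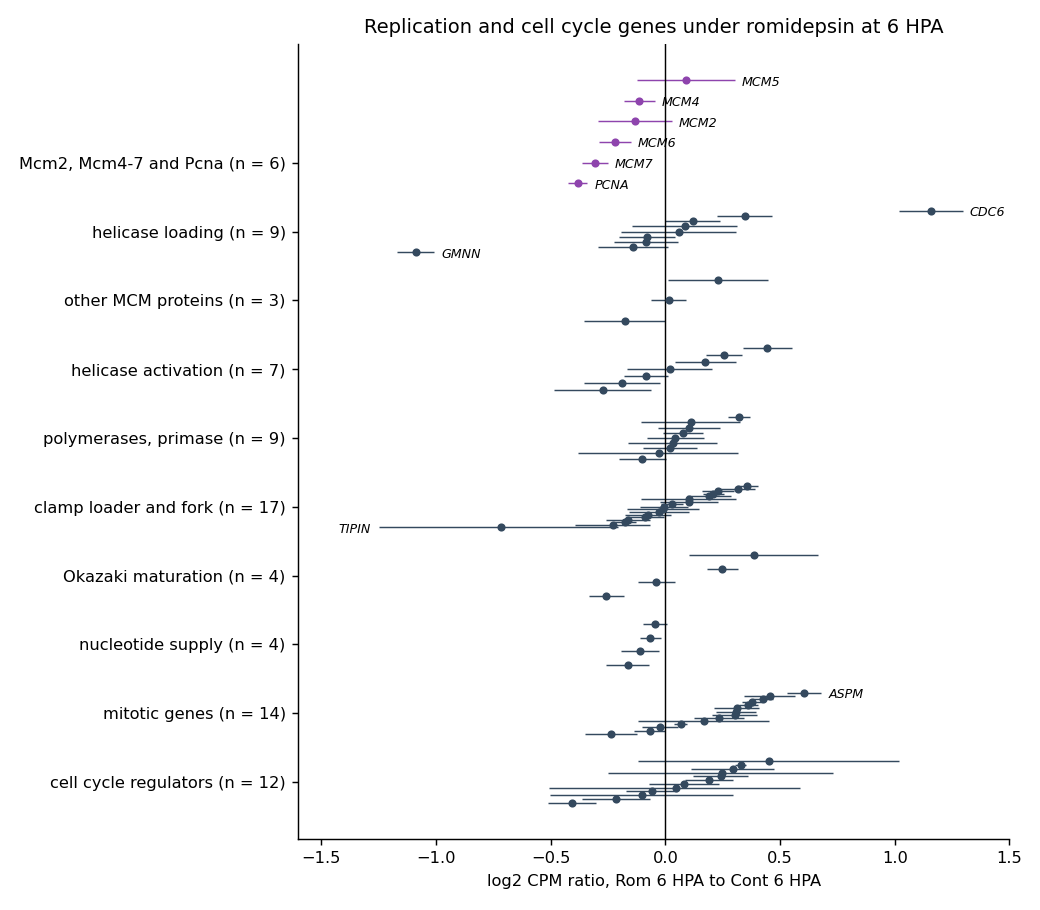
Log2 CPM ratio of Rom 6 HPA over Cont 6 HPA (horizontal axis) for the 6 genes (top) and for other listed genes that reached 100 UMIs over the 2 libraries, 1 point a gene, in rows by role; lines are exact conditional 95% intervals and names mark the 6 genes and ratios past 1.5-fold. *CDC6* at 1.16 and *GMNN* at -1.09 stand apart from the rest, and *PCNA* and *MCM7* lie at the low end of the 6.

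Across 9 kinds of nuclei in the 3 libraries, 27 values of at least 50 nuclei each, the genes whose log2 CPM went most closely with that of the summed 6 were *HMGB2* (Pearson's r = 0.87), *HNRNPA3* (0.86), *CUBN8.1* (0.85), *CDCA7* (0.85) and *CIRBP* (0.84). *HMGB2* encodes a chromatin protein and *CDCA7* a factor of DNA methylation upkeep. These r describe 27 sums that share libraries and differ in depth, over 6655 symbols with a median r of 0.094, of which 8.85% were above 0.5. Each of the 6 set against the other 5, r was 0.83 for *PCNA*, 0.75 for *MCM7*, 0.56 for *MCM6*, 0.50 for *MCM2*, 0.49 for *MCM5* and 0.44 for *MCM4*, on 1004 UMIs (*MCM5*) to 29193 UMIs (*PCNA*) over the libraries.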

How the data were processed

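The authors sequenced nuclei on the 10x Genomics platform and deposited 1 filtered matrix of UMI counts per library, not normalized, per feature of an axolotl transcript assembly. Cell Ranger 6.0.0 is named in the submitters' processing notes and 3.0.2 in the matrix headers. The labels give the time after amputation in days and the study's methods in hours, and hours were used. All deposited nuclei were kept and no doublets were removed. The 6 genes, the gene lists and the marker lists were chosen with earlier results of these data known.

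Counts were summed by symbol (ignoring case) and divided by the total UMIs. Levels have exact Poisson intervals, ratios exact conditional intervals and shares Clopper-Pearson intervals, all at 95%, and they cover counting error only. The ratio step was tested on simulated counts. The background was every symbol that reached 1000 UMIs over the libraries compared, and listed genes needed 100 UMIs. The further genes named by rule were those of the replication and regulator lists past 1.5-fold between both 6 HPA libraries, and the 5 symbols most like the summed genes over kinds of nuclei (log2 of CPM plus 5). Of the listed genes, *MCM9*, *CDC7*, *RRM2*, *PLK1*, *CCNB1*, *KNL1* and *CDKN1B* were matched to no feature. The value of 1 listed gene is not reported here.

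Nuclei were clustered (Leiden, resolution 1, on 10 principal components of 3000 features, 15 neighbours), leaving out the 6 genes and the replication, mitotic and regulator lists. Clusters with a median of at least 1.5 times that of their library were called deep and clustered again on 20 components. A sub-cluster was named where at least 3 markers of a type exceeded the rest of the deep nuclei by 2-fold, more than for any other type, and at least 1 was among its 10 leading genes, and a sub-cluster led by more neural tube genes than ciliary markers was left unnamed, rules set after the clusters were seen. Of 121 markers for 12 types, 112 were matched. Python 3.11.15, numpy 2.4.6, scipy 1.17.1, pandas 2.3.3, scikit-learn 1.9.0, python-igraph 0.11.9, leidenalg 0.10.2 and matplotlib 3.10.9 were used. Thinning to 950 UMIs left out 190 nuclei from Rom 6 HPA, 101 from Cont 6 HPA and 2800 from 0 HPA, and thinning deep nuclei to 1400 UMIs left out 603, 164 and 483. Alternatives were another scaling, another denominator, other sets of nuclei, thinning, other cluster settings and other minimums of UMIs. No sequence is shown, since the reference used here holds names only.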

Additional observations from a re-analysis of the deposited data

How the results depend on the processing

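No paired analysis was possible because each condition had 1 library and no replicate numbers were shared. For the same reason no library could be left out within a condition. Deep and shallow nuclei, the removal of shared barcodes and names by marker count alone were alternatives chosen after seeing the data. The log2 ratio of the summed genes in Rom 6 HPA to Cont 6 HPA, -0.28, kept its sign throughout. It was -0.36 with median-of-ratios size factors, -0.32 without ribosomal protein genes and the 100 top features in the total, -0.25 without nuclei over 2 times the median UMIs, -0.32 in named, -0.26 in unnamed, -0.36 in deep and -0.24 in shallow nuclei. Cont 6 HPA to 0 HPA turned round with size factors (0.17, and 0.10 for *MCM4*, 0.16 for *MCM6*, 0.10 for *MCM7* and 0.23 for *PCNA*) and without ribosomal protein genes and top features (0.056, and 0.042 for *MCM6* and 0.11 for *PCNA*), since both alter only the denominator. It was -0.17 without nuclei over 2 times the median, -0.17 thinned, -0.17 in named, -0.17 in unnamed, -0.16 in deep and -0.18 in shallow nuclei. Rom 6 HPA to 0 HPA was -0.19 with size factors, -0.27 without ribosomal protein genes and top features, -0.49 in named and -0.52 in deep nuclei.

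Named to unnamed nuclei, -0.41 in Rom 6 HPA, -0.34 in Cont 6 HPA and -0.35 in 0 HPA, was -0.34, -0.25 and -0.26 when thinned, -0.39, -0.28 and -0.28 with names by marker count alone, -0.75, -0.77 and -0.74 without ribosomal protein genes and top features, and -0.32, -0.21 and -0.22 as deep to shallow. Shares of nuclei with a UMI at their own depth were 29.6% in Rom 6 HPA, 44.9% in Cont 6 HPA and 37.4% in 0 HPA. For nuclei with mitotic transcripts, the ratio at own depth was -0.13 in Rom 6 HPA and -0.068 in 0 HPA, in deep nuclei 0.28, 0.22 and 0.26 in Rom 6 HPA, Cont 6 HPA and 0 HPA, and in deep nuclei at own depth 0.25, 0.39 and 0.20. For other replication transcripts it was -0.11, -0.058 and -0.12 at own depth, 0.32, 0.40 and 0.30 in deep nuclei and 0.24, 0.42 and 0.16 in deep nuclei at own depth. Other replication genes lower by over 1.2-fold in Rom 6 HPA than in Cont 6 HPA numbered 3 of 53 (5.66%, against 7.27% of symbols). With size factors they numbered 6 of 53 (11.3%, against 14.8% of symbols). They were 5 of the 58 matched genes with no minimum, and 1 with at least 1000 UMIs, the minimum used for the symbols. Few UMIs limit *MCM2* and *MCM5* and single kinds of nuclei.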
